A study of Mus musculus with 22 samples.

Results

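Glycolysis and hypoxia genes were followed across mouse embryonic fibroblasts, primary connective tissue cells, in which Cre recombinase had switched on an oncogene, deleted the transcription factor gene Wt1, or done both. The set was a list of 34 genes: enzymes of glycolysis, transporters of glucose and lactate, kinases that set glycolytic flux, and genes of oxygen sensing and the hypoxia response. Each gene was read from the probe set with the highest mean signal among those annotated to that gene alone. By that rule 32 of the 34 genes were measured, out of 18194 genes in all; Gpi1 and Eno1 were not analysed here. Gapdh was read from the control probe sets of the array, because no other probe set carried its name alone.

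Total RNA was collected 7 days after infection with adenovirus and hybridised to 22 whole-genome arrays. The 7 double arrays held cells in which adenoviral Cre both activated the oncogene and knocked out Wt1. The 5 oncogene arrays held cells with a conditional oncogene allele that Cre activated. The 5 Wt1-null arrays held Wt1f/f cells given Cre. The 5 control arrays held wild-type cells infected with adenovirus carrying GFP. The control cells therefore differed from all others both in alleles and in the virus they received, and the effect of Cre itself cannot be told apart from that of the alleles in any comparison with control. Nothing in the labels ties a replicate to its own embryo or culture, and the spread behind each p-value may therefore be technical.

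Glycolysis splits glucose into pyruvate, and lactate dehydrogenase turns pyruvate into lactate, which monocarboxylate transporters carry out of the cell. The transcription factor HIF-1 raises many of these genes when oxygen is low: prolyl hydroxylases mark its alpha subunit for destruction in normal oxygen, and the stabilised subunit binds a short DNA core, A or G followed by CGTG. Growth signals from oncogenes are known to raise glucose uptake and glycolysis in fibroblasts.

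The promoters of 4 members are given as examples. Pfkfb4 and Pdk3 passed the test below. Eno2 and Slc16a1 passed it in some comparisons once arrays that stood apart or matched another group were left out. Ndrg1, P4ha2, Pfkm, Bnip3 and Adm also passed in such fits, and their promoters are not shown. Each runs from 250 bases before to 50 bases after the annotated start of the gene (RefSeq, GRCm38.p6). Capitals mark the HIF core, searched as ACGTG and GCGTG on both strands, where it reads CACGT and CACGC. Pfkfb4 lies at chr9:108991652-108991951 on the plus strand, Pdk3 at chrX:93832101-93832400 on the minus strand, Slc16a1 at chr3:104638414-104638713 on the plus strand, and Eno2 at chr6:124769624-124769923 on the minus strand.
Pfkfb4: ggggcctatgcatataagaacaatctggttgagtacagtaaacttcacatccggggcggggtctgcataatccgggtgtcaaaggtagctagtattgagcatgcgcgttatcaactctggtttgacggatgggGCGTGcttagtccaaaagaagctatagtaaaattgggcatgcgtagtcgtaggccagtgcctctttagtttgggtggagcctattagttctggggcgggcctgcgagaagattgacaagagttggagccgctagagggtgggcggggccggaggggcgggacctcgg
Pdk3: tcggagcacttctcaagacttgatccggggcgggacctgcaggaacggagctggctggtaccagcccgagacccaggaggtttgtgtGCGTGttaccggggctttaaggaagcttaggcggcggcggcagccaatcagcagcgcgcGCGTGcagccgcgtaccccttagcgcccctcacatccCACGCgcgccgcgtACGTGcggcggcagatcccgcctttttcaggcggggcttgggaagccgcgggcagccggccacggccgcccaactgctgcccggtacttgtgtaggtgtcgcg
Slc16a1: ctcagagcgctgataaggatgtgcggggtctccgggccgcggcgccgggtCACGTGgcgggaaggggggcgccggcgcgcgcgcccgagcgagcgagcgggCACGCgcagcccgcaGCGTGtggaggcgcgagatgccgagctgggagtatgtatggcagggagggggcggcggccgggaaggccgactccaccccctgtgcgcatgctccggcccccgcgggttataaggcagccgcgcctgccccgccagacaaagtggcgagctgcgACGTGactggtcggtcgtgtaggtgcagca
Eno2: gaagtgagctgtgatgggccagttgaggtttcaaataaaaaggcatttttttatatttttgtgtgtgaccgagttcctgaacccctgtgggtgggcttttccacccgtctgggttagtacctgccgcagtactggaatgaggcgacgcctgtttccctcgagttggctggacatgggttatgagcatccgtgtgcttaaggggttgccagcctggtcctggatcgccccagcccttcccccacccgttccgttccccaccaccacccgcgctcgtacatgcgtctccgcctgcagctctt
The core matched 1 time in the Pfkfb4 window, 4 times in Pdk3 and 5 times in Slc16a1, where the palindrome CACGTG counts on each strand. These letters were not found in the Eno2 window. Of the 33 listed genes with a promoter in the table, 30 held at least 1 match (90.9%), against 12628 of all 27025 genes (46.7%). Ldha had the most matches of any member, with 7 at 1 start. Such short matches follow base composition too, whose part was not tested.

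Values are log2 signals from robust multi-array averaging (RMA), so a difference of 1 is a doubling. All 10 fibroblast markers read above background on every array: Col1a1, Col1a2, Col3a1, Thy1, Pdgfrb, Vim and Fn1 were at 10.54 or more, while Pdgfra, Dcn and Lum fell to 8.80, 8.91 and 8.12 on their lowest arrays. Background was taken as the 3.65 to 4.22 of Y-linked genes in arrays with high Xist. Markers of other cell types were mixed. Cdh1 averaged 4.03, Emcn 4.34, Pecam1 4.62 and Ptprc 4.52, but the epithelial Epcam averaged 8.40 and Krt18 reached 11.08, the endothelial Kdr averaged 7.17 and Tek reached 8.13, and the macrophage Csf1r averaged 7.30. Their part in the members' values was not tested. All 32 members averaged above that background, but so did 17388 of all 18194 genes. Wt1 was near background in every group, at 4.16 to 4.77 in double, 4.51 to 4.67 in oncogene, 4.34 to 4.72 in Wt1-null and 4.22 to 4.46 in control arrays, so the deletion could not be checked at this level. Wt1-null replicate 2 was nearly the same as double replicate 2: the SD of their difference over all probe sets was 0.15, and no member differed by more than 0.26. Wt1-null replicates 3 and 4 were almost as close (SD 0.16). Oncogene replicate 4 and double replicate 4 stood apart, with mean correlations to the other arrays of 0.963 and 0.940 and a 3' minus 5' signal for the pyruvate carboxylase control of 2.73 and 2.97, against 0.85 to 2.27 on the remaining 20 arrays. High Xist was seen on 5 of 7 double, 0 of 5 oncogene, 2 of 5 Wt1-null and 2 of 5 control arrays.

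Most of the pathway differed by less than the spread between arrays, and 2 regulators of glycolytic flux stood out. Pfkfb4, the bifunctional enzyme that makes and breaks down a sugar bisphosphate activator of phosphofructokinase, was higher than in control in both groups with the active oncogene. Pdk3, a kinase that switches off pyruvate dehydrogenase and so keeps pyruvate out of mitochondria, was lower in double than in control arrays. With limma's moderated test and Benjamini-Hochberg adjustment over all genes (called at an adjusted p below 0.05), 2 of 32 members were called in double against control, Pfkfb4 higher and Pdk3 lower, where 5.93% of all genes were called, 3.48% higher and 2.45% lower. In oncogene against control, 1 of 32 was called, Pfkfb4 higher, where 2.04% of all genes were called, 1.32% higher. The F-test over the 4 groups called 1 of 32, again Pfkfb4, where it called 3.02% of all genes. A count of 1 or 2 in 32 is close to those background shares. In RNA of whole cultures, fewer cells that express a gene and less RNA per cell cannot be told apart.

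Pfkfb4 (probe set 1456888_at) ranged over the 7 double arrays between 7.51 and 8.06, with a median of 7.75. It read 7.88, 8.28, 7.97, 7.97 and 7.82 on the oncogene arrays, 7.30, 7.42, 7.68, 7.61 and 7.31 on the Wt1-null arrays, and 7.74, 7.39, 7.21, 7.05 and 7.18 on the control arrays. Every oncogene array was above every control array, as was so in that direction for 3.13% of all genes. The double arrays overlapped control only through control replicate 1; the other 4 control arrays were below all of them. The difference was 0.67 ± 0.13 (SE) in oncogene against control, a 1.59-fold rise (limma, adjusted p = 0.00918), and 0.44 ± 0.12 in double against control, a 1.35-fold rise (adjusted p = 0.0295). Among the alternatives, the oncogene call held in 38 of 38 and the double call in 29 of 38. The double call ended when control replicate 2, 3, 4 or 5 was left out (adjusted p = 0.0556, 0.0847, 0.105 and 0.0740) or double replicate 5 or 7 (0.0585 and 0.0521), while the difference stayed between 0.37 and 0.54 over all alternatives. In Wt1-null against control Pfkfb4 differed by 0.15 ± 0.13, which did not pass (adjusted p = 0.633). In double against Wt1-null, where both groups received Cre, it differed by 0.29 ± 0.12, which did not pass either (limma, adjusted p = 0.259).

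Pdk3 (1426410_at), encoded on the X chromosome, ranged over the double arrays between 9.11 and 10.77, with a median of 9.94. It read 10.39, 10.42, 10.88, 9.72 and 9.98 on the oncogene arrays, 10.69, 9.84, 10.38, 10.45 and 10.35 on the Wt1-null arrays, and 10.73, 11.00, 11.16, 11.12 and 11.17 on the control arrays. Control was the highest group and the tightest. Only double replicate 4 and oncogene replicate 4 reached into its range, and no Wt1-null array did; 4.19% of all genes had every Wt1-null array below every control array. Pdk3 fell by 1.0 ± 0.24 (SE) on the log2 scale in double against control, 0.50-fold (limma, adjusted p = 0.0177). The differences in oncogene and Wt1-null cells had the same sign, -0.76 ± 0.26 and -0.70 ± 0.26, but did not pass (adjusted p = 0.150 and 0.301). These 3 comparisons share the control arrays. Double differed by -0.24 ± 0.24 from oncogene and by -0.30 ± 0.24 from Wt1-null arrays, and neither was called. Without oncogene replicate 4 and double replicate 4, oncogene against control was called too, at -0.91 ± 0.24 (adjusted p = 0.0445), 1 of 2 members called where 3.62% of all genes were called. The double call ended without control replicate 3 (adjusted p = 0.0522) and held with high Xist as a covariate, at -0.93 (adjusted p = 0.0360).

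**Figure D1:**
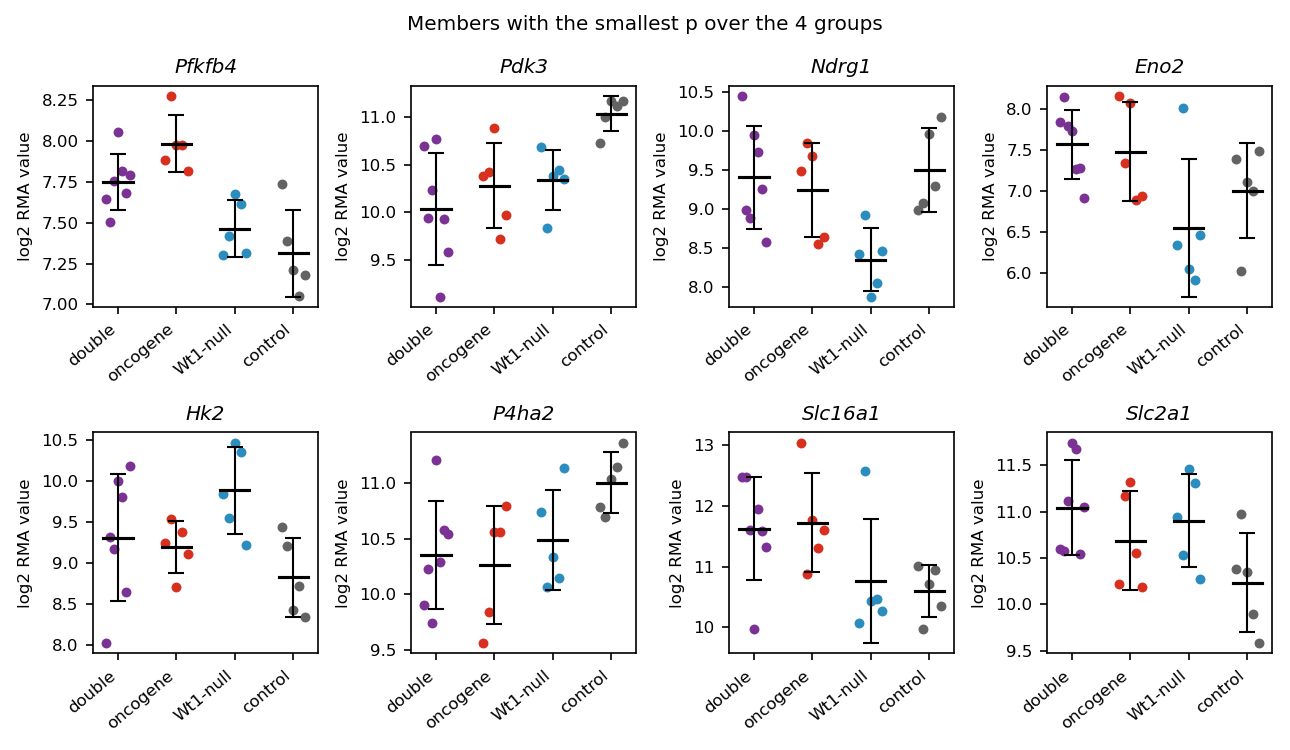
Log2 RMA values of the 8 members with the smallest p over the 4 groups; points are arrays, bars the group mean and whiskers 1 SD (7 double, 5 oncogene, 5 Wt1-null and 5 control arrays). Each panel has its own vertical axis. All 5 oncogene arrays lie above the control arrays for Pfkfb4, and Wt1-null replicate 2 sits apart from its group for Eno2 (8.0) and Slc16a1 (12.58).

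The other flux regulators were Pdk1, a second pyruvate dehydrogenase kinase and a classical HIF-1 target, and Pfkfb3, the paralogue of Pfkfb4. Neither passed in the unweighted fit to all arrays; with array weights Pdk1 was called against control in all 3 Cre groups. Pdk1 averaged 8.21 ± 0.34 in double, 8.27 ± 0.27 in oncogene, 8.06 ± 0.18 in Wt1-null and 8.53 ± 0.28 in control arrays (SD, n = 7, 5, 5 and 5). Its differences from control were -0.33 in double, -0.26 in oncogene and -0.47 in Wt1-null cells. Another Pdk1 probe set, 1435836_at, had the opposite sign in double (0.18) and oncogene cells (0.16). Pfkfb3 averaged 6.26 ± 0.28 in double, 6.18 ± 0.07 in oncogene, 6.43 ± 0.09 in Wt1-null and 6.37 ± 0.28 in control arrays. Its differences from control were -0.11 in double, -0.18 in oncogene and 0.07 in Wt1-null cells. Another Pfkfb3 probe set, 1456676_a_at, gave -0.40, -0.36 and -0.08 in the same order. Its double difference came near a call (limma over all probe sets, adjusted p = 0.0585).

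In the unweighted fit to all arrays, none of the 15 measured enzymes of the glycolytic chain passed against control in the double, oncogene or Wt1-null group, with differences between -0.45 for Eno2 and 1.06 for Hk2, both in Wt1-null cells. Their median difference was -0.06 in double, -0.07 in oncogene and -0.19 in Wt1-null cells, beside -0.02, -0.03 and -0.05 over all genes. Ldha, which makes lactate, averaged 13.14 ± 0.13 in double, 13.23 ± 0.09 in oncogene, 13.33 ± 0.14 in Wt1-null and 13.29 ± 0.04 in control arrays. The 95% confidence interval of its double minus control difference ran between -0.31 and 0.01. For Pgam1, phosphoglycerate mutase, that interval was -0.27 to 0.15, for Gapdh -0.31 to 0.13, and for Pgk1, phosphoglycerate kinase, -0.40 to 0.07. None of these intervals reached 1 or -1 on the log2 scale. The Pgk1 probe sets 1438640_x_at and 1439435_x_at differed by 0.08 and 0.05 in double against control, where the main one differed by -0.16. Of all 32 members, 24 had an interval inside ±1 in double against control, 23 in oncogene against control and 22 in Wt1-null against control. The share of all genes inside that bound is not given, so these counts do not set the members apart from other genes.

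**Figure D2:**
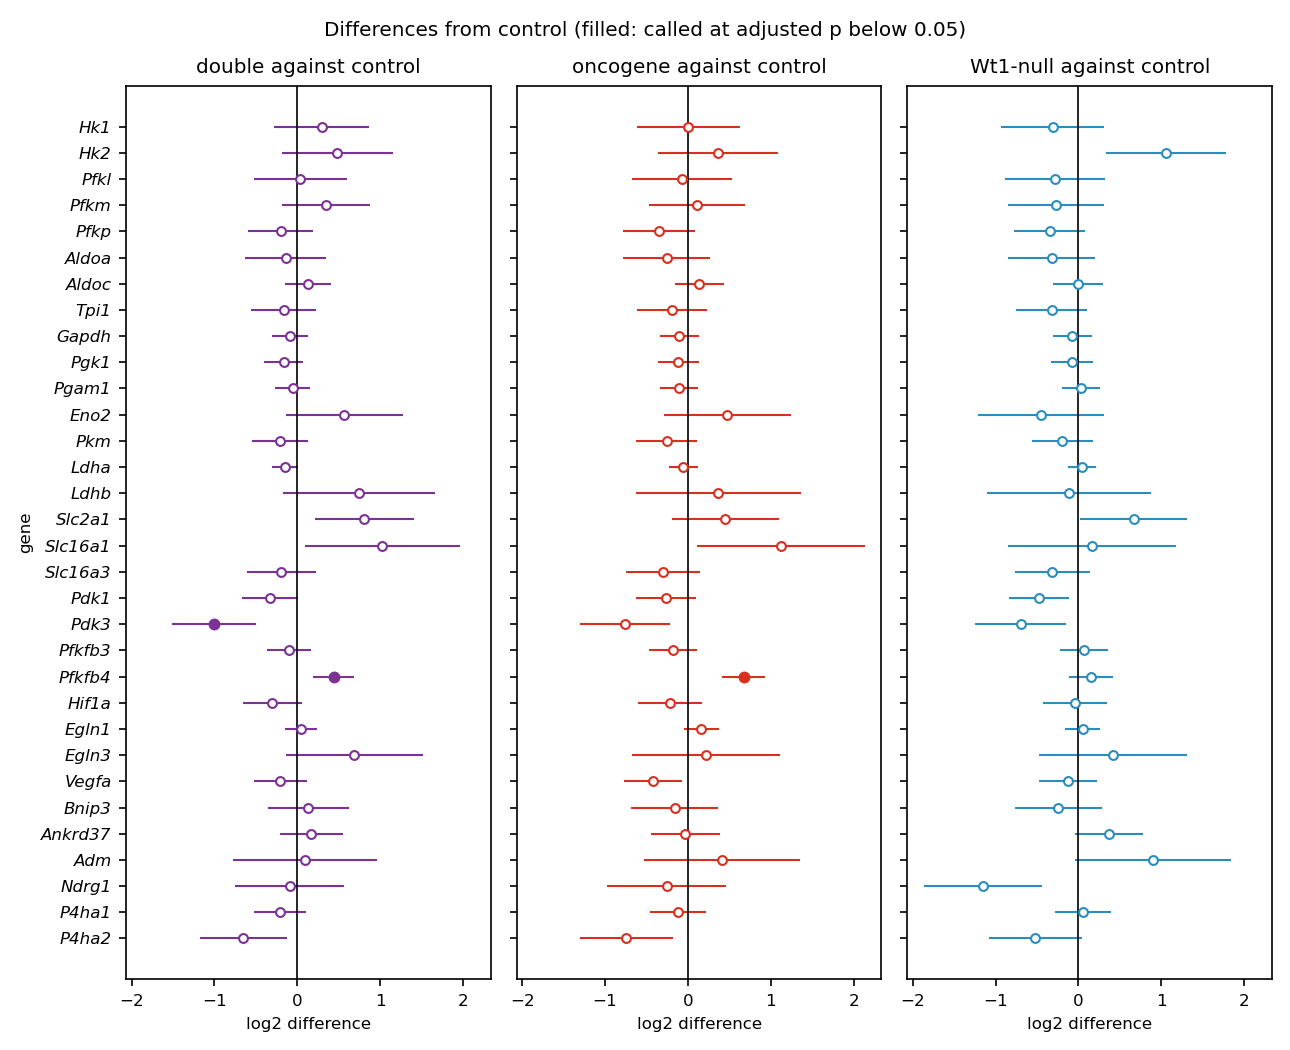
Log2 differences of the 32 measured members in double, oncogene and Wt1-null against control arrays; points are estimates, lines 95% confidence intervals, and filled points passed an adjusted p of 0.05 (limma). Filled points are Pfkfb4 and Pdk3 in double and Pfkfb4 in oncogene cells, and the intervals of Ldha, Gapdh, Pgk1 and Pgam1 are among the narrowest.

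Hexokinase 2, Hk2 (1422612_at), phosphorylates glucose at the entry to the chain. It ranged over the double arrays between 8.02 and 10.19, with a median of 9.32, and read 9.24, 9.54, 8.71, 9.38 and 9.11 on the oncogene arrays. The Wt1-null arrays read 9.84, 9.55, 10.47, 10.35 and 9.22, and the control arrays 9.44, 9.21, 8.42, 8.73 and 8.35. The Wt1-null mean was the highest, with 1 of its 5 arrays, replicate 5, inside the control range. The difference of 1.06 ± 0.35 (SE) in Wt1-null against control did not pass (limma, adjusted p = 0.240), nor did 0.48 ± 0.32 in double (0.443) or 0.37 ± 0.35 in oncogene cells (0.678). The ubiquitous hexokinase Hk1 averaged 11.47 ± 0.51 in double, 11.18 ± 0.69 in oncogene, 10.86 ± 0.42 in Wt1-null and 11.17 ± 0.23 in control arrays.

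Phosphofructokinase, the main control point of the chain, has 3 isoforms, all measured. Pfkl of liver averaged 10.26 ± 0.59 in double, 10.16 ± 0.54 in oncogene, 9.94 ± 0.47 in Wt1-null and 10.23 ± 0.12 in control arrays. Pfkm of muscle averaged 10.21 ± 0.51 in double, 9.97 ± 0.66 in oncogene, 9.59 ± 0.25 in Wt1-null and 9.86 ± 0.22 in control arrays, and Pfkp of platelets 9.54 ± 0.43, 9.39 ± 0.37, 9.39 ± 0.28 and 9.74 ± 0.14 in the same order. None of the isoforms was called in the unweighted fit to all arrays. Double replicate 4 and oncogene replicate 4 were the 2 highest arrays for all of Hk1, Pfkl, Pfkm and Aldoa, the muscle aldolase. The muscle marker Acta1, skeletal alpha-actin, ran between 9.28 and 13.09 over all arrays, and Ckm between 6.26 and 6.86; their part in the isoform values was not tested. Triosephosphate isomerase Tpi1, the brain aldolase Aldoc and pyruvate kinase Pkm were not called in the unweighted fit to all arrays. The farthest of them from control was Tpi1 in Wt1-null cells, at -0.32. With array weights Tpi1 and Pkm were called against control in double, oncogene and Wt1-null cells.

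Eno2 (1418829_a_at), the neuronal enolase, ranged over the double arrays between 6.91 and 8.14, with a median of 7.73. It read 8.15, 7.34, 8.06, 6.88 and 6.94 on the oncogene arrays, 6.33, 8.0, 6.04, 5.92 and 6.46 on the Wt1-null arrays, and 7.39, 6.02, 7.11, 6.99 and 7.48 on the control arrays. Apart from replicate 2, which read like the double arrays, the Wt1-null arrays were at 6.46 or below, and control replicate 2 was as low. In double against Wt1-null the difference was 1.01 ± 0.34 (SE) and did not pass with all arrays (limma, adjusted p = 0.170). Against control it was 0.57 ± 0.34 in double, 0.48 ± 0.37 in oncogene and -0.45 ± 0.37 in Wt1-null cells, none of which passed. Without Wt1-null replicate 2, the Wt1-null difference was -0.81 ± 0.31 and did not pass either (adjusted p = 0.328). The neural marker Tubb3 ran between 6.25 and 9.31 and Gfap between 6.30 and 7.06 over all arrays. Ldhb, the heart form of lactate dehydrogenase, averaged 10.19 ± 0.74 in double, 9.81 ± 0.94 in oncogene, 9.33 ± 1.04 in Wt1-null and 9.45 ± 0.28 in control arrays, and read 11.02 on Wt1-null replicate 2 against at most 9.54 on the other 4.

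None of the 3 transporters passed in the unweighted fit to all arrays without covariates. Slc2a1 (1434773_a_at), the glucose transporter GLUT1, ranged over the double arrays between 10.55 and 11.75, with a median of 11.05. It read 10.22, 11.17, 11.32, 10.55 and 10.18 on the oncogene arrays, 10.95, 10.53, 11.46, 11.31 and 10.27 on the Wt1-null arrays, and 10.38, 10.97, 10.35, 9.89 and 9.58 on the control arrays. All groups overlapped. The difference from control was 0.81 ± 0.29 (SE) in double (limma, adjusted p = 0.104), 0.45 ± 0.31 in oncogene and 0.67 ± 0.31 in Wt1-null cells. Its 2 other probe sets had the same signs. With high Xist as a covariate Slc2a1 passed in double against control, which then called 3 of 32 members where 5.46% of all genes were called.

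Slc16a1 (1415802_at), the lactate transporter MCT1, ranged over the double arrays between 9.98 and 12.48, with a median of 11.61. It read 13.05, 10.87, 11.78, 11.30 and 11.61 on the oncogene arrays, 10.07, 12.58, 10.44, 10.47 and 10.27 on the Wt1-null arrays, and 11.01, 9.97, 10.72, 10.94 and 10.35 on the control arrays. Apart from double replicate 4, all double arrays were above all control arrays, and oncogene replicate 3 alone of its group fell inside the control range. The difference from control was 1.03 ± 0.45 (SE) in double (limma, adjusted p = 0.197) and 1.12 ± 0.49 in oncogene cells (0.273), and 0.17 ± 0.49 in Wt1-null cells (0.912). The sign of the Wt1-null difference rested on replicate 2: without it the difference was -0.29 ± 0.43 (0.826). Without oncogene replicate 4, double replicate 4 and Wt1-null replicate 2, double against control was 1.30 ± 0.31 and passed (adjusted p = 0.0117), 1 of 4 members called where 12.3% of all genes were called. Slc16a3, the lactate exporter MCT4, averaged 6.28 ± 0.43 in double, 6.17 ± 0.19 in oncogene, 6.16 ± 0.40 in Wt1-null and 6.47 ± 0.31 in control arrays.

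Among the hypoxia genes, Ndrg1 (1420760_s_at), a stress gene induced by low oxygen, had its lowest levels in Wt1-null cells. It ranged over the double arrays between 8.59 and 10.45, with a median of 9.26, and read 9.49, 9.86, 9.69, 8.56 and 8.65 on the oncogene arrays. The Wt1-null arrays read 8.43, 8.93, 7.88, 8.06 and 8.47, and the control arrays 9.0, 9.08, 9.96, 9.30 and 10.18. No Wt1-null array reached the control range, as in that direction for 4.19% of all genes. The difference was -1.15 ± 0.34 (SE) in Wt1-null against control (limma, adjusted p = 0.207) and 1.06 ± 0.32 in double against Wt1-null (0.139), so neither passed. In oncogene and double cells it differed from control by -0.26 ± 0.34 and -0.09 ± 0.32. All 5 Ndrg1 probe sets were lower in Wt1-null than in control arrays, with differences between -1.24 and -0.74.

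P4ha2 (1417149_at), a collagen prolyl hydroxylase subunit that HIF-1 raises, ranged over the double arrays between 9.74 and 11.20, with a median of 10.29. It read 9.56, 9.84, 10.56, 10.56 and 10.80 on the oncogene arrays, 10.74, 10.07, 10.34, 10.15 and 11.14 on the Wt1-null arrays, and 10.78, 10.70, 11.03, 11.15 and 11.37 on the control arrays. Control was the highest group, with overlap from at least 1 array of each other group. The difference from control was -0.65 ± 0.25 (SE) in double (limma, adjusted p = 0.136), -0.74 ± 0.27 in oncogene (0.173) and -0.52 ± 0.27 in Wt1-null cells (0.427). Without oncogene replicate 4 and double replicate 4, the double difference was -0.79 ± 0.23 and passed (adjusted p = 0.0378), 1 of 3 members called where 10.1% of all genes were called.

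Hif1a, Egln1 and Egln3 were not called in the unweighted fit to all arrays. Hif1a, the regulated HIF-1 subunit, averaged 12.35 ± 0.42 in double, 12.44 ± 0.33 in oncogene, 12.62 ± 0.18 in Wt1-null and 12.65 ± 0.08 in control arrays. Another Hif1a probe set, 1448183_a_at, gave larger differences from control, -0.84 in double and -1.08 in oncogene cells, which were not called either. Egln1, the main HIF prolyl hydroxylase, differed from control by at most 0.16, in oncogene cells, but its other probe set, 1451110_at, gave -0.54 in double, -0.41 in oncogene and -0.41 in Wt1-null cells. Egln3, the hydroxylase that HIF itself induces, averaged 7.60 ± 0.94 in double, 7.12 ± 0.77 in oncogene, 7.32 ± 0.57 in Wt1-null and 6.91 ± 0.25 in control arrays, and its difference of 0.69 ± 0.40 (SE) in double against control did not pass (limma, adjusted p = 0.353).

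Vegfa, the angiogenic growth factor, averaged 7.95 ± 0.36 in double, 7.73 ± 0.17 in oncogene, 8.02 ± 0.28 in Wt1-null and 8.15 ± 0.16 in control arrays. All oncogene arrays were below all control arrays, as in that direction for 2.81% of all genes, but the difference of -0.42 ± 0.17 (SE) did not pass (limma, adjusted p = 0.217). A second Vegfa probe set, 1420909_at, differed by 0.37 in Wt1-null against control, where the main one differed by -0.13. Adm, the vasodilator adrenomedullin, averaged 11.91 ± 0.85 in double, 12.23 ± 0.84 in oncogene, 12.72 ± 0.87 in Wt1-null and 11.81 ± 0.22 in control arrays. Another Adm probe set, 1416077_at, differed from control by -0.33 in double and -0.01 in oncogene cells, where the main one differed by 0.09 and 0.42. Both were higher in Wt1-null than in control arrays, at 0.79 and 0.90. Bnip3, which directs mitochondria to autophagy, averaged 9.96 ± 0.50 in double, 9.66 ± 0.37 in oncogene, 9.58 ± 0.34 in Wt1-null and 9.82 ± 0.38 in control arrays. Ankrd37 and P4ha1, the remaining members, were not called in any comparison of the unweighted fit to all arrays.

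**Figure D3:**
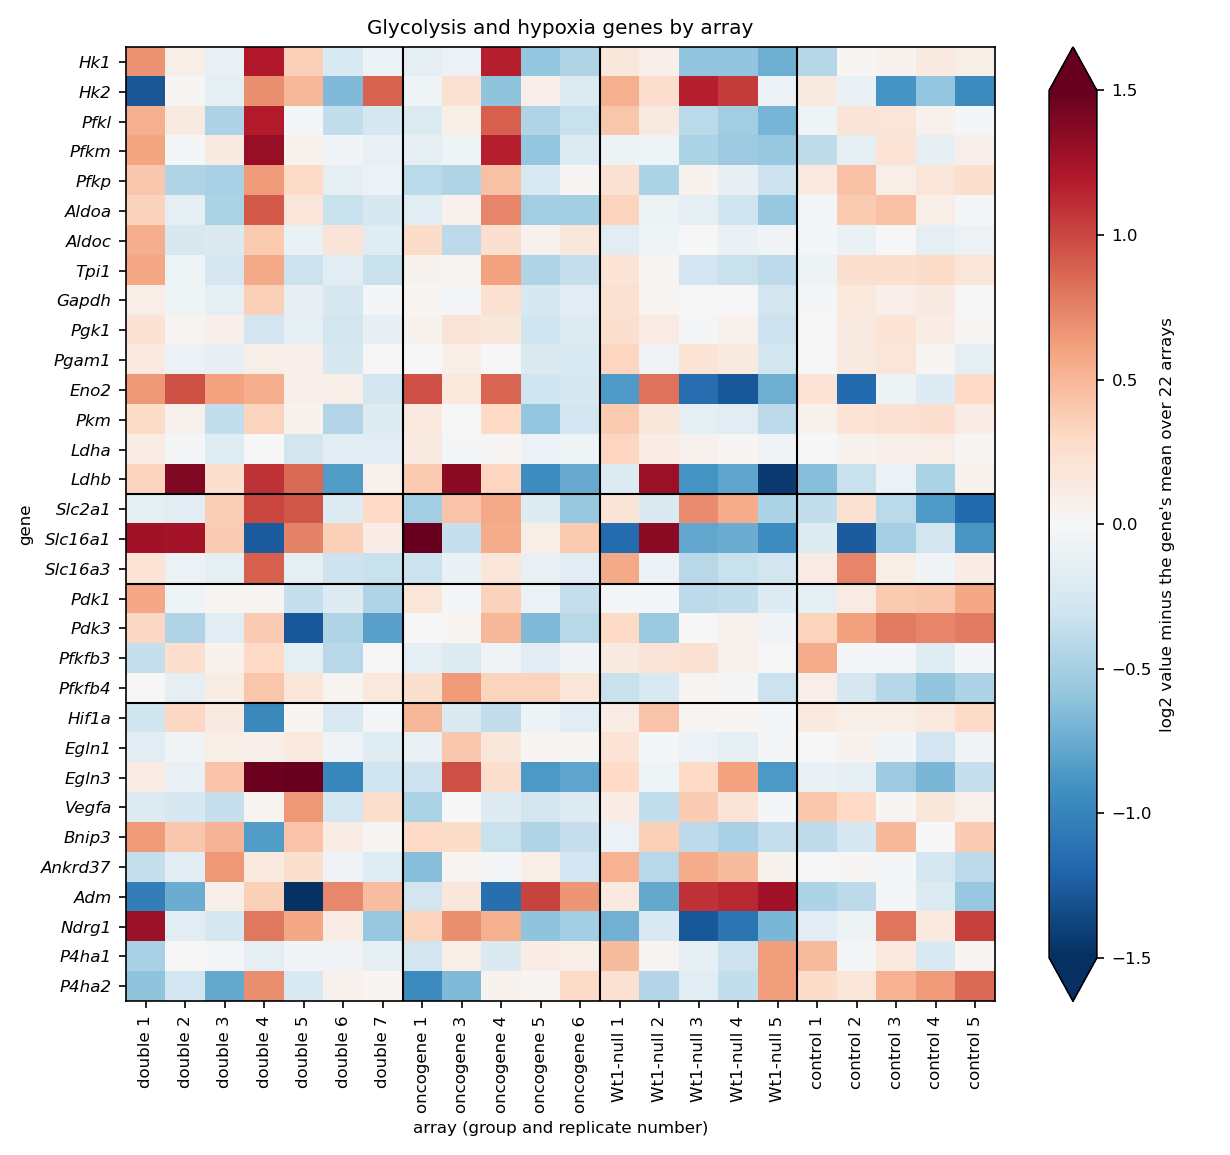
Centred log2 values of the 32 measured members (rows, by role: enzymes, transporters, flux regulators, hypoxia genes) on the 22 arrays (columns, by group). Red is above and blue below the gene's mean over all arrays; Wt1-null replicate 2 has the colours of double replicate 2, and double replicate 4 holds the highest value of 8 members.

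Wt1-null against control called 0 of 32 members by limma, where 0.104% of all genes were called; at an unadjusted p below 0.05 there were 5 of 32 (Hk2, Slc2a1, Pdk1, Pdk3 and Ndrg1), beside 12.7% of all genes. Fitting only these 2 groups called Pdk3 and Ndrg1, lower in Wt1-null, where 3.29% of all genes were called. Double against oncogene, the comparison of Wt1 loss within cells that carry the active oncogene, called 0 of 32 and 0% of all genes. At an unadjusted p below 0.05 it had 0 of 32 members, beside 3.09% of all genes. Its differences ran between -0.32 for Adm and 0.47 for Egln3. Of the 32 confidence intervals 28 lay inside ±1, a count given without the share of all genes. The interaction, which asks whether the double minus Wt1-null difference equals the oncogene minus control difference, called 0 of 32, where 0.011% of all genes were called. Its 2 members at an unadjusted p below 0.05, beside 8.55% of all genes, were Ndrg1 at 1.31 ± 0.47 (SE) and Pfkfb4 at -0.39 ± 0.17, both with an adjusted p of 0.580 in limma.

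Double against Wt1-null, the comparison of the oncogene on a background without Wt1, depended on 1 array. The labels name no batch, but the deposit numbers fall into 3 sets: all 7 double arrays are in the third and all 5 Wt1-null arrays in the others, so set and group cannot be told apart in this comparison, and Wt1-null shares a set with control replicate 1 alone among the controls. With all 22 arrays it called 0 of 32 members, where 0.0824% of all genes were called, and 6 of 32 had an unadjusted p below 0.05, beside 14.8% of all genes. Without Wt1-null replicate 2, which read like double replicate 2, Eno2 and Ndrg1 were called, both higher in double, where 5.08% of all genes were called, 3.24% higher. Eno2 was then 1.38 ± 0.29 (SE) higher in double than in Wt1-null arrays (limma, adjusted p = 0.00888) and Ndrg1 1.20 ± 0.34 higher (0.0428). The double and Wt1-null arrays then did not overlap for either gene, as in that direction for 3.73% of all genes. Wt1-null replicate 2 held the highest Wt1-null value of each, 8.0 for Eno2 and 8.93 for Ndrg1. Leaving it out removed the overlap by itself, so neither the calls nor the gap is independent support for a difference. The F-test over the 4 groups called Eno2 and Pfkfb4 in that setting, where it called 6.25% of all genes. Without oncogene replicate 4 and double replicate 4 as well, 5 of 32 members were called: Eno2, Slc16a1, Pfkm and Bnip3 higher and Adm lower in double than in Wt1-null arrays, where 8.43% of all genes were called. Ndrg1 was not among them, at 1.11 ± 0.34 (adjusted p = 0.0514).

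**Figure D4:**
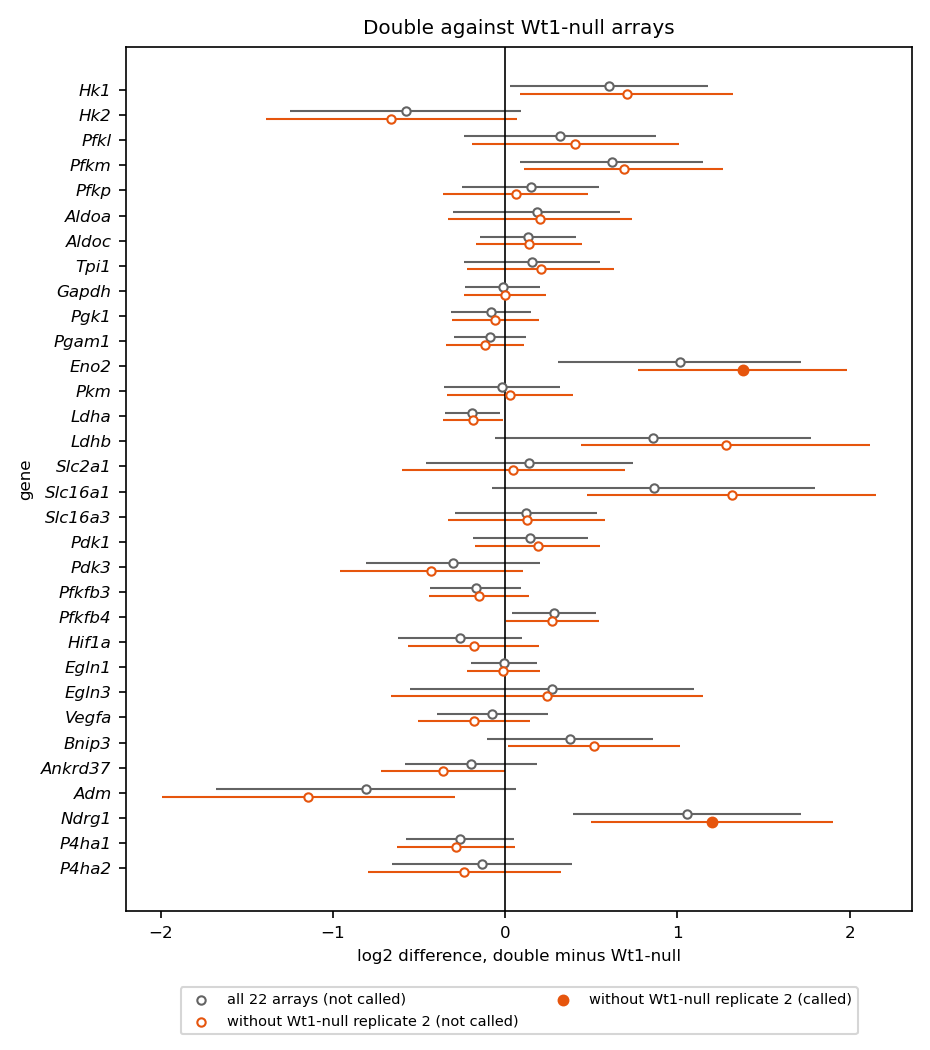
Log2 differences in double minus Wt1-null arrays for the 32 measured members, with all 22 arrays (grey) and without Wt1-null replicate 2 (orange); lines are 95% confidence intervals and filled points passed an adjusted p of 0.05. Eno2 and Ndrg1 are filled only in the fit without that array.

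The mean of the members per array, each gene first centred on its mean over all arrays, did not separate the groups. It averaged 0.06 ± 0.18 in double, -0.01 ± 0.20 in oncogene, -0.07 ± 0.14 in Wt1-null and 0.00 ± 0.04 in control arrays (SD, n = 7, 5, 5 and 5). The control arrays lay closer together than those of any other group. The highest means were those of double replicate 4 (0.39) and oncogene replicate 4 (0.24). These 2 arrays also had the steepest 3' to 5' signal of the pyruvate carboxylase control, whose part was not tested. The actin control did not set them apart, at 0.28 and 0.33, below 0.57 on double replicate 3. Nor did the Gapdh control, at 0.12 and 0.11, below 0.205 on double replicate 2. By role, the enzymes averaged 0.09 ± 0.29 in double, -0.01 ± 0.31 in oncogene, -0.11 ± 0.26 in Wt1-null and 0.00 ± 0.05 in control arrays. The transporters averaged 0.24 ± 0.20 in double, 0.11 ± 0.25 in oncogene, -0.14 ± 0.32 in Wt1-null and -0.31 ± 0.22 in control arrays, and the flux regulators -0.09 ± 0.24, 0.03 ± 0.19, -0.07 ± 0.07 and 0.16 ± 0.06 in the same order. For the transporters all double arrays (lowest -0.05) were above all control arrays (highest -0.10), a description with no test. No such share is given for other gene sets. Slc2a1 and Slc16a1 were higher in double than in control arrays, but Slc16a3 was lower, at -0.19. None of them passed in the unweighted fit to all arrays without covariates. Members varied more within groups than genes at large, with a median residual SD of 0.35 against 0.26 over all genes. That comparison was not matched for signal level.

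**Figure D5:**
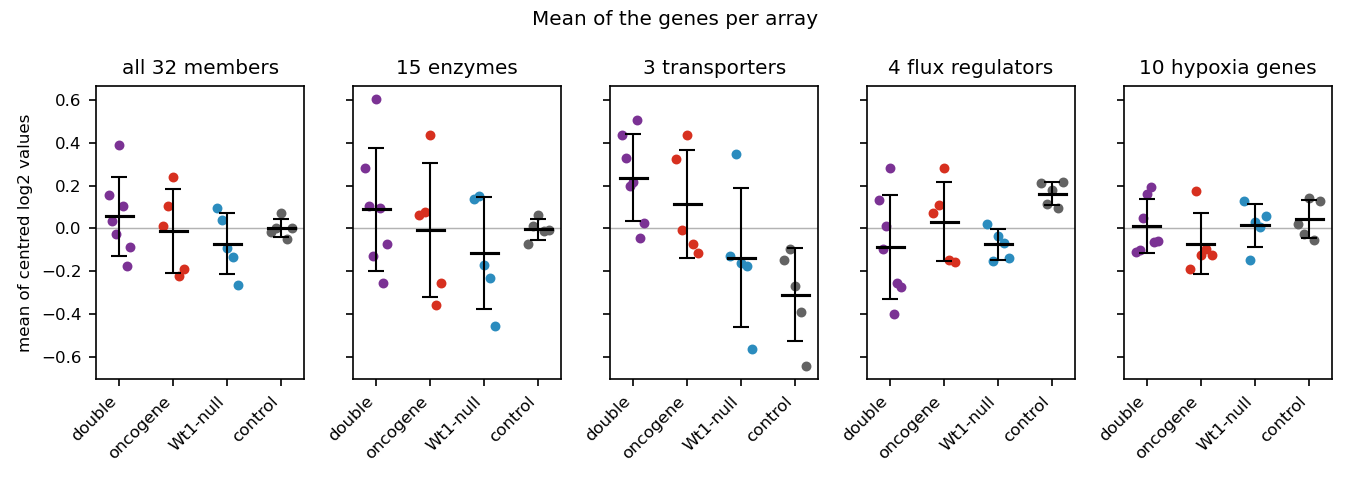
Mean of centred log2 values per array for all 32 members, the 15 enzymes, 3 transporters, 4 flux regulators and 10 hypoxia genes; points are arrays, bars the group mean and whiskers 1 SD. Control arrays lie close to 0 for all members and the enzymes, and double replicate 4 is the highest point there.

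A wider list of 105 genes of glucose metabolism, oxygen sensing and the hypoxia response, of which 93 were measured, was also examined. Against control, 7 of 93 were called higher and 2 lower in double, beside 5.93% of all genes called. In oncogene cells 2 were higher and 3 lower, beside 2.04%, and in Wt1-null cells 0 were called by limma, beside 0.104%. Rbpj, the DNA-binding partner of Notch, differed by 1.75 in double and 1.64 in oncogene cells (limma, adjusted p = 0.000157 and 0.00109). Higd1a, a mitochondrial protein induced by hypoxia, differed by -0.78 and -0.69, and Siah2, a ubiquitin ligase for prolyl hydroxylases, by -1.13 and -0.95, in double and in oncogene cells. Bpgm, bisphosphoglycerate mutase, differed by -1.07 in oncogene cells. The secreted proteins Igfbp3 and Stc1 differed by 2.63 and 1.24 in double cells. These comparisons share the control arrays. Double against oncogene and the interaction called none of the 93, and double against Wt1-null called Rbpj alone, or 10 higher and 3 lower without Wt1-null replicate 2, beside 5.08% of all genes.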

How the data were processed

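RNA of 22 samples of mouse embryonic fibroblasts was hybridised to Affymetrix whole-genome mouse arrays. The deposited values are log2 signals that the authors normalised with RMA in Expression Console, per the submitters' processing notes; its version is not given in the sources used here. Groups were taken from the sample titles. The design text counts 6 oncogene samples; 5 were used here, and the oncogene's name is not reported here.

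From the 45101 probe sets, 34945 carried 1 gene name in the platform annotation and 932 several, which were left out; 64 were array controls. The probe set with the highest mean stood for each gene, giving 18194 genes. Group means were fitted to all 22 arrays with limma 3.58.1 in R 4.3.3 (lmFit, eBayes), with Benjamini-Hochberg adjustment over all genes and calls at an adjusted p below 0.05. The scripts were tested on simulated data. The number of arrays limits the precision. Values were given in full for the 8 members with the smallest F-test p, because fewer than 8 were called; of the wider list, the 6 called genes with the smallest p were named. The members, gene lists and alternatives were chosen with earlier results of these data known.

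Alternatives were all probe sets of a gene averaged or tested singly, genes above background alone, repeated quantile normalisation, median centring, a trended robust variance, array weights, blocks for replicate number or accession set, a covariate for high Xist, fits to the compared groups alone, and leaving out arrays. Leaving out Wt1-null replicate 2, oncogene replicate 4 and double replicate 4 together, and keeping only the third set of accessions, were added after seeing the data. The HIF core was counted in promoter windows of 300 bases.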

Additional observations from a re-analysis of the deposited data

Results flagged for a closer look

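Each member was examined in each group for an array whose gap to its nearest neighbour filled most of the range of its group. Of 128 such tests 9 stood out, and chance alone gives about 1 in 20. The share of the range is given for each.

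Wt1-null replicate 2 stood apart for Slc16a1, at 12.58 against 10.47 for the nearest array (share 0.837), and for Eno2, at 8.0 against 6.46 (0.742). Oncogene replicate 4 stood apart for Hk1, at 12.36 against 11.11 (0.716). Double replicate 4 was low for Bnip3, at 8.94 against 9.80 (0.581), and double replicate 1 was low for P4ha1, at 9.70 against 10.05 (0.715). Control replicate 1 stood apart for 3 members: it was low for Hk1, at 10.77 against 11.23 (0.809), and Tpi1, at 12.97 against 13.23 (0.749), and high for Pfkfb3, at 6.86 against 6.28 (0.786). Control replicate 2 was high for Slc16a3, at 7.01 against 6.40 (0.778).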

How the results depend on the processing

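Pfkfb4 in oncogene against control was called under 38 of 38 alternatives (difference 0.58 to 0.80, adjusted p at most 0.0337). Pdk3 in double against control was called under 36 of 38, the exceptions being leaving out control replicate 3 and the arrays of the third set of accessions alone (-1.08, adjusted p = 0.0631). Pfkfb4 in double against control was called under 29 of 38; besides leaving out single arrays, the call ended with repeated quantile normalisation (adjusted p = 0.0521), with the replicate block (0.0639) and in a fit to the compared groups alone (0.0743). No called difference changed sign, and the differences in the mean of the members per array moved by less than the SD within groups (0.15) under each alternative run.

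Double against control called 1 of 32 members with repeated quantile normalisation, with the replicate block, in a fit to these groups alone and in the third set of accessions. Wt1-null against control called 2 in a fit to these groups alone. With array weights the counts were 13 in double, 9 in oncogene and 18 in Wt1-null against control (33.2%, 24.3% and 33.1% of all genes), 11 in double against Wt1-null (19.3%), 9 in the interaction (15.1%) and 18 over the 4 groups (46.4%), with 0 in double against oncogene. The weights were 3.35 and 3.42 for the nearly alike Wt1-null replicates 3 and 4, against 0.117 for double replicate 4. Leaving out arrays gave 0 to 4 in double against control, the 0 without control replicate 3, 1 to 2 in oncogene against control, 0 to 5 in double against Wt1-null and 1 to 4 over the 4 groups. The causes were not tested.

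Of 28 same-numbered pairs of arrays, 13 correlated above 0.1 in their deviations from the group means (range -0.47 to 0.77). The highest were 0.77 for oncogene and double replicate 4, 0.62 for oncogene and double replicate 6, and 0.60 for Wt1-null and double replicate 2. No values are given for pairs with different numbers, so these cannot decide whether the numbers pair the arrays. With the replicate block, 1 member was called in double and in oncogene against control and 0 over the 4 groups. Batches are not named in the labels; the accession sets are only runs of deposit numbers, but double and Wt1-null arrays share none, so that comparison has no value within a set. The number of arrays limits all results, and members with a wide spread, such as Slc16a1 (residual SD 0.82) and Ldhb (0.80), the most.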
